A study of Rattus norvegicus with 10 samples.

Results

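Gene expression after BT2 was compared with gene expression after vehicle in rat heart tissue taken 4 h after ligation of the left coronary artery. The tissue was the area at risk (AAR), the myocardium whose blood supply is cut off by the ligation and comes back at reperfusion. The comparison takes 4 of the 10 samples of the study, namely the 2 BT2 libraries and the 2 vehicle libraries labelled 4 h, and covers all genes with enough counts, 15216 of the 31580 in the count table. The BT2 animals (Rattus norvegicus) had been given BT2, which is treated here as a code name only. The vehicle animals had been given vehicle, and both groups carried the same coronary injury. The study text counts the hours from myocardial ischaemia and reperfusion injury and the sample titles count them from the ligation, so the zero point of the 4 h differs between the sources. The sources used here do not give the dose for the tissue samples, the strain, sex or age, nor whether a library came from 1 animal or a pool. The p-values therefore measure the spread between tissue libraries, those at 24 h included, which may be technical in part. The other samples were 4 tissue libraries at 24 h, used here to estimate the spread and for 1 comparison of times, and 2 libraries of nuclei at 24 h, not used here.

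In the first hours of reperfusion, injured myocardium switches on a programme of genes that are silent or low in a resting heart. Damaged and stretched cells release growth factors and cytokines, receptor signalling through ERK and NF-kappa B induces early transcription factors within minutes to hours, and chemokines and adhesion molecules bring in blood leukocytes, neutrophils first. Surviving cardiomyocytes raise stress chaperones, cytoskeletal and natriuretic peptide genes and the machinery that makes ribosomes, while many genes of the resting contractile cell are turned down.

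The 4 libraries held 13735630 and 19171154 counts in BT2 and 10397310 and 17696344 counts in vehicle. Expression is given in CPM, counts scaled to a common library total, after correction by trimmed mean of M values (TMM) factors, and fold changes as log2 of BT2 over vehicle ± standard error (SE), with 2 libraries a side. A gene was called when its Benjamini-Hochberg adjusted p from edgeR's quasi-likelihood test was under 0.05, and "rose" and "fell" are used of called genes only. The labelled tissue carried its markers: all 12 cardiomyocyte markers were measured, and their summed level was 102900 and 100600 CPM in the BT2 libraries, against 91690 and 109600 CPM in the vehicle libraries. Across genes, the 2 BT2 libraries differed by a median of 0.196 log2 units and the 2 vehicle libraries by 0.239, and 841 genes (BT2) and 1247 genes (vehicle) differed by more than 1 log2 unit within a group. The second vehicle library stood apart in neutrophil genes: the 14 measured neutrophil markers summed to 386.1 and 557.8 CPM in the BT2 libraries, against 737.5 and 2084 CPM in the vehicle libraries. Endothelial markers (14 of 14 measured) summed to 4605 and 4295 CPM in BT2, against 4735 and 4079 CPM in vehicle. Fibroblast markers (12 of 13 measured, with Col1a2 listed at 0 in the 4 libraries) summed to 5743 and 5578 CPM in BT2, against 6046 and 5253 CPM in vehicle. In such bulk tissue, fewer cells of a type and less RNA per cell cannot be told apart.

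BT2 changed 2495 of the 15216 genes tested (16.4%) at 4 h. Of these, 1015 (6.67% of genes tested) were higher and 1480 (9.73%) were lower with BT2 than with vehicle. In all 2495 both BT2 libraries lay on one side of both vehicle libraries; over all tested genes this order held for 4437 genes (29.2%) with BT2 above and 4576 genes (30.1%) with BT2 below. The changes were more than 2-fold for 324 genes that rose and 607 that fell, and more than 4-fold for 66 and 156. The split between directions depended on the scaling: with upper quartile factors 1298 genes rose and 1244 fell, and with library totals alone, which shifted the median of all genes by 0.13 on the log2 scale, 1386 rose and 931 fell. Fitted to the 4 libraries at 4 h alone, without the 24 h libraries to share the estimate of the spread, edgeR called 210 genes higher and 411 lower. Within a group the 24 h libraries differed by a median of 0.169 log2 units in BT2 and 0.129 in vehicle. At 4 h these medians were 0.196 and 0.239. The shared estimate therefore rests in part on libraries with a smaller spread than those at 4 h. The number of calls rested on single libraries. Without BT2 replicate 1 there were 1335 calls (8.48% of genes tested in that fit), without BT2 replicate 2 there were 112 (0.710%), without vehicle replicate 1 there were 2796 (17.7%) and without vehicle replicate 2 there were 279 (1.77%). In these fits the lone library of a group is assumed to vary like the other groups. Called in the full fit and in all 4 fits that leave out 1 library were 68 genes (0.447%), 19 of them higher (0.125%) and 49 lower (0.322%). Below, a gene is said to be called in every fit where it is one of these. The label says only that the threshold was passed: in their weakest fit most of these genes passed it narrowly. Counts of list members below stand against the shares over all tested genes, 6.67% higher and 9.73% lower with TMM factors. With library totals those were 1386 higher and 931 lower of 15216 genes. In the lists below of which 0 members rose, between 0 and 3 members were higher at an unadjusted p under 0.05 in edgeR, and DESeq2 called 0 or 1 of them higher.

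**Figure D1:**
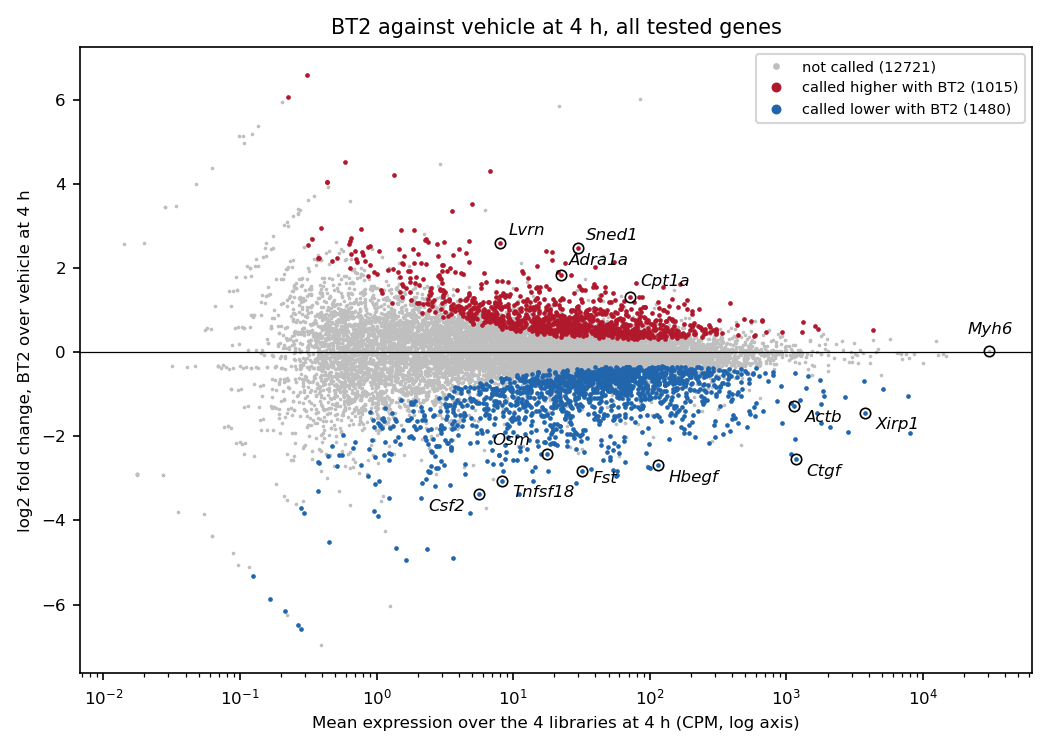
Each point is 1 of the 15216 tested genes, with its mean expression over the 4 libraries at 4 h on the horizontal log axis (CPM) and the log2 fold change of BT2 over vehicle on the vertical axis. The 1015 genes called higher lie above 0 and the 1480 called lower lie below, with 13 genes circled and named, among them Ctgf and Xirp1 (lower) and the cardiomyocyte myosin gene Myh6 (log2 fold change 0.04 ± 0.17).

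Genes of growth factors, cytokines and other secreted or cell-surface ligands and inhibitors held the largest falls among the genes called in every fit. The ranking took genes with a mean of at least 5 CPM over the 4 libraries. Csf2 (mean 5.59 CPM) and Tnfsf18 (8.24 CPM) reached this only through their vehicle libraries. Their BT2 values lay near the floor, so the size of these falls is uncertain. Hbegf encodes heparin-binding EGF-like growth factor, a ligand of the EGF receptor family. It had 37.3 and 24.6 CPM in the BT2 libraries, against 148 and 247 CPM in the vehicle libraries. Both vehicle libraries lay well above both BT2 libraries, and the log2 fold change was -2.68 ± 0.27 (edgeR adjusted p = 0.00919). Fst, encoding follistatin, an inhibitor that binds activins, had 10.2 and 5.98 CPM in the BT2 libraries, against 45.9 and 66.6 CPM in the vehicle libraries (-2.82 ± 0.32, edgeR adjusted p = 0.00919). Csf2, encoding the cytokine GM-CSF, had 1.35 and 0.677 CPM in the BT2 libraries, against 9.900 and 10.4 CPM in the vehicle libraries. Both BT2 libraries were near 1 CPM and both vehicle libraries near 10, a log2 fold change of -3.37 ± 0.38 (edgeR adjusted p = 0.00919). Tnfsf18, encoding the TNF superfamily ligand GITRL, had 1.903 and 1.64 CPM in the BT2 libraries, against 15.7 and 13.7 CPM in the vehicle libraries (-3.06 ± 0.23, edgeR adjusted p = 0.00552). The interleukin-6 family cytokines Osm (oncostatin M) and Lif (leukaemia inhibitory factor) fell together. Osm had 5.07 and 6.04 CPM in the BT2 libraries, against 30.5 and 29.02 CPM in the vehicle libraries (-2.41 ± 0.18, edgeR adjusted p = 0.00552), and Lif had 4.36 and 5.53 CPM in the BT2 libraries, against 22.2 and 20.3 CPM in the vehicle libraries (-2.09 ± 0.24, edgeR adjusted p = 0.00919). In both genes the libraries within a group were close and the groups were well apart. Bmp2, a bone morphogenetic protein ligand, had 6.502 and 4.797 CPM in the BT2 libraries, against 15.1 and 17.3 CPM in the vehicle libraries (-1.54 ± 0.19). Ctgf, encoding connective tissue growth factor of the CCN family of matrix-associated proteins and the most abundant of these ligands, had 442 and 244 CPM in the BT2 libraries, against 1702 and 2293 CPM in the vehicle libraries (-2.54 ± 0.28, edgeR adjusted p = 0.00919). All 8 genes kept their calls in every fit.

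The lists around these ligands showed how far the pattern reached. Of 29 measured growth factors and receptors of the receptor tyrosine kinase class, 10 fell and 1 rose, with a median log2 fold change of -0.43 against 0.00 over all tested genes. Bdnf (brain-derived neurotrophic factor) had 18.9 and 19.5 CPM in the BT2 libraries, against 80.6 and 121 CPM in the vehicle libraries (-2.39 ± 0.29, edgeR adjusted p = 0.00954), and the ephrin receptor gene Epha2 had 35.8 and 24.04 CPM in the BT2 libraries, against 74.3 and 108 CPM in the vehicle libraries (-1.61 ± 0.22). Met, the receptor of hepatocyte growth factor, also fell (-1.34 ± 0.28), as did the EGF receptor ligand Areg (-2.46 ± 0.53). Igf1 (insulin-like growth factor 1) went the other way, with 63.99 and 66.7 CPM in the BT2 libraries, against 47.9 and 35.05 CPM in the vehicle libraries (0.66 ± 0.18, edgeR adjusted p = 0.044). Gas6, the most abundant member that was not called, had 402 and 479 CPM in the BT2 libraries, against 355 and 265 CPM in the vehicle libraries (edgeR adjusted p = 0.063). Among 33 genes of TGF-beta, activin and BMP signalling, 13 fell and 1 rose (median -0.48). The activin subunit gene Inhba had 16.3 and 5.42 CPM in the BT2 libraries, against 59.5 and 50.1 CPM in the vehicle libraries (-2.37 ± 0.41), and its inhibitors Fst and Fstl3 (follistatin-like 3; 5.47 and 4.797 CPM in BT2, 12.2 and 15.1 CPM in vehicle; -1.42 ± 0.19) fell with it. Tgfb2, a TGF-beta ligand, fell (-1.18 ± 0.16), as did the latent TGF-beta binding protein gene Ltbp2 (-1.697 ± 0.22), while Tgfbr3, the betaglycan co-receptor, rose (61.4 and 103 CPM in BT2, 48.3 and 32.7 CPM in vehicle; 1.03 ± 0.27). Of 20 genes of the interleukin-6 family and its signalling, 4 fell and 1 rose. With library totals 2 fell and 1 rose. Il6 itself had 13.2 and 25.96 CPM in the BT2 libraries, against 43.1 and 38.6 CPM in the vehicle libraries, and was not called (edgeR adjusted p = 0.364). Of 26 genes for VEGF, angiopoietin, apelin and endothelin signalling, 9 fell and 2 rose with TMM factors, and 4 fell and 2 rose with library totals. Pgf (placental growth factor) had 37.3 and 22.4 CPM in the BT2 libraries, against 195 and 119.9 CPM in the vehicle libraries (-2.401 ± 0.32, edgeR adjusted p = 0.0109) and the vasodilator peptide gene Adm (adrenomedullin) 18.5 and 16.03 CPM in BT2 and 38.5 and 45.8 CPM in vehicle (-1.295 ± 0.17). Vegfa had 1018 and 1116 CPM in the BT2 libraries, against 1242 and 1246 CPM in the vehicle libraries and was not called (edgeR adjusted p = 0.312). The calls of Bdnf, Epha2, Fstl3, Tgfb2, Ltbp2, Pgf and Adm were lost without BT2 replicate 2, and that of Inhba without vehicle replicate 2. Those of Met, Areg, Igf1 and Tgfbr3 were lost in both of these fits, and those of Areg and Igf1 also without BT2 replicate 1. Without BT2 replicate 2 the growth factors had 1 lower call, the TGF-beta list 3, the interleukin-6 list 2 and the VEGF list 0. Without vehicle replicate 2 they had 3, 6, 2 and 3.

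**Figure D2:**
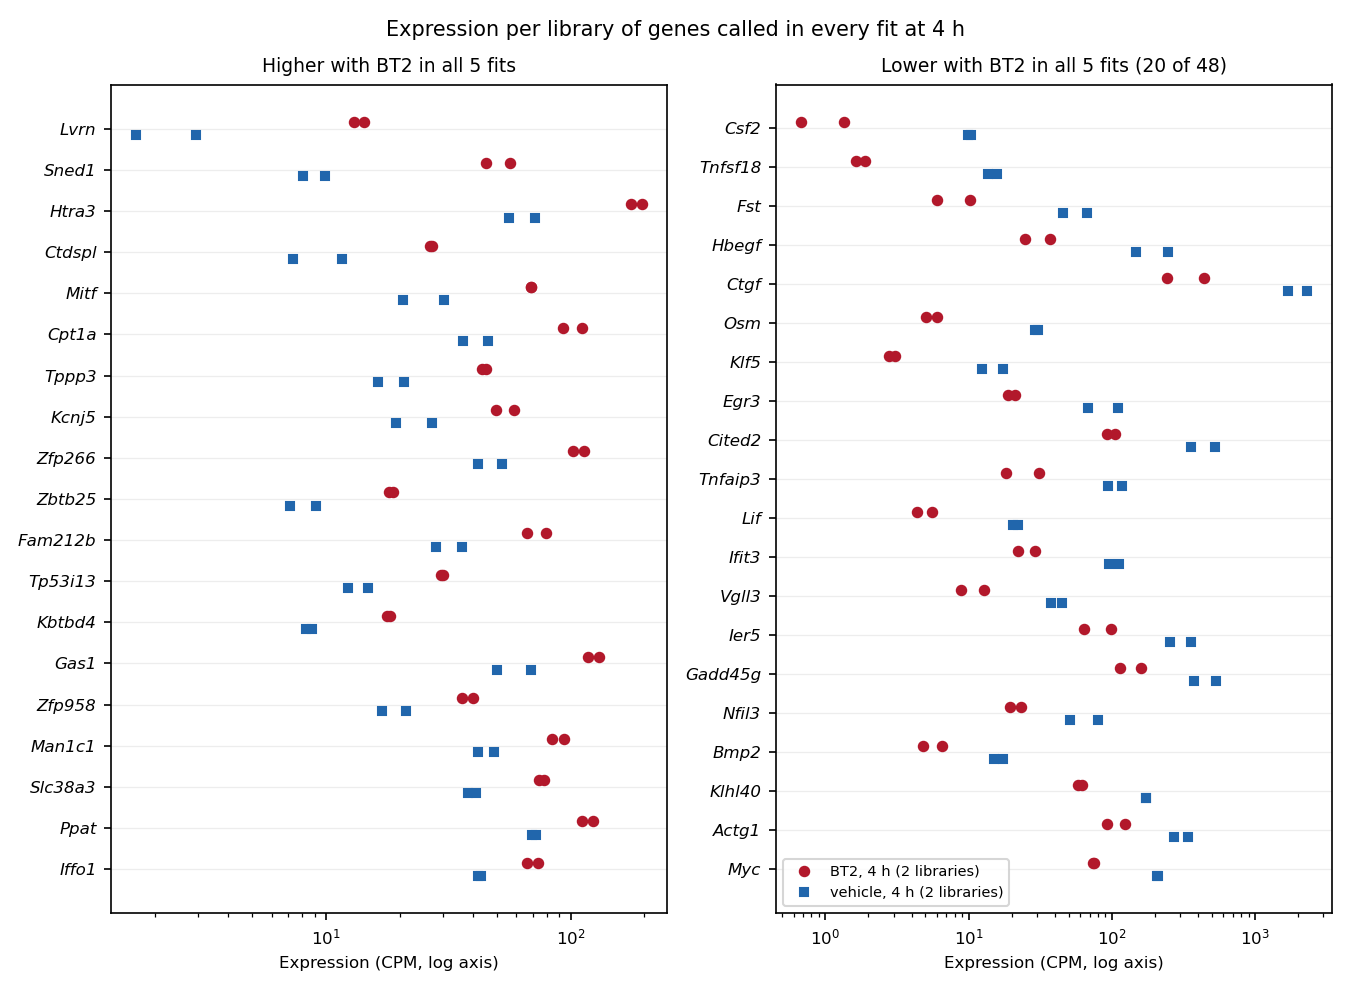
Expression per library (CPM, log axis) of the 19 genes called higher with BT2 in all 5 fits (left) and of the 20 with the smallest log2 fold changes among the 48 called lower in all 5 fits that passed the naming rule (right). Circles are the 2 BT2 libraries and squares the 2 vehicle libraries. The naming rule took only genes in which the 2 pairs do not overlap, an order that all 2495 called genes had.

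Early transcription factors, the first genes to be switched on after receptor signalling, were lower with BT2 in 14 of 31 cases and higher in 0 (median log2 fold change -0.84, against 0.00 over all genes tested). Egr3, an early growth response zinc finger factor, had 18.9 and 21.2 CPM in the BT2 libraries, against 67.9 and 111 CPM in the vehicle libraries (-2.16 ± 0.23, edgeR adjusted p = 0.00919). Myc, which drives transcription of genes for growth and ribosome production, had 75.2 and 73.6 CPM in the BT2 libraries, against 206 and 211 CPM in the vehicle libraries. The libraries of each group agreed closely and vehicle was more than 2-fold higher (-1.49 ± 0.16, edgeR adjusted p = 0.00919). Ier5, an early response gene, had 98.3 and 63.4 CPM in the BT2 libraries, against 255 and 356 CPM in the vehicle libraries (-1.92 ± 0.23). Outside that list, Klf5, a Krüppel-like factor, had 2.78 and 3.05 CPM in the BT2 libraries, against 12.4 and 17.5 CPM in the vehicle libraries (-2.36 ± 0.24), and Cited2, which encodes a CBP/p300-binding transcriptional coregulator, had 93.2 and 105 CPM in the BT2 libraries, against 357 and 528 CPM in the vehicle libraries (-2.16 ± 0.22, edgeR adjusted p = 0.00919). Nfil3, a bZIP repressor that also acts on clock-controlled genes, had 19.6 and 23.1 CPM in the BT2 libraries, against 51.4 and 80.05 CPM in the vehicle libraries (-1.62 ± 0.20). These 6 genes were called in every fit. Egr1 had 150.5 and 192 CPM in the BT2 libraries, against 458 and 675 CPM in the vehicle libraries (-1.73 ± 0.39, edgeR adjusted p = 0.0282), a call kept only when vehicle replicate 1 was the library left out. Of the AP-1 genes, Junb had 182 and 265 CPM in the BT2 libraries, against 409 and 438 CPM in the vehicle libraries (-0.92 ± 0.17, edgeR adjusted p = 0.0158), a call lost without vehicle replicate 2. Fosl1 had 31.4 and 9.82 CPM in the BT2 libraries, against 76.5 and 115 CPM in the vehicle libraries (-2.24 ± 0.57, edgeR adjusted p = 0.0438), a call kept only when BT2 replicate 1 was the library left out. Fos had 137 and 96.00 CPM in the BT2 libraries, against 175 and 246 CPM in the vehicle libraries (edgeR adjusted p = 0.0807) and Fosb had 126 and 50.2 CPM in the BT2 libraries, against 60.1 and 157 CPM in the vehicle libraries (edgeR adjusted p = 0.806), so Fosb overlapped between the groups and neither was called. Jund had 259 and 162 CPM in the BT2 libraries, against 214 and 238 CPM in the vehicle libraries, which overlapped as well (edgeR adjusted p = 0.788). The list as a whole had 10 lower calls without BT2 replicate 1, 4 without BT2 replicate 2, 15 without vehicle replicate 1 and 5 without vehicle replicate 2.

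Genes that feed back on ERK signalling are induced by that pathway and then restrain it. The list used here is wider, and also holds the transcription factor genes Etv4 and Etv5 and the phosphatase gene Dusp10. Of its 21 genes, 7 fell and 0 rose (median log2 fold change -0.71). Spry4, a Sprouty inhibitor of receptor tyrosine kinase signalling, had 54.3 and 46.2 CPM in the BT2 libraries, against 133 and 119.7 CPM in the vehicle libraries (-1.33 ± 0.16, edgeR adjusted p = 0.00919). Phlda1 had 99.8 and 96.96 CPM in the BT2 libraries, against 233 and 383 CPM in the vehicle libraries (-1.65 ± 0.24), and Dusp10, a phosphatase that acts on p38 and JNK, had 14.6 and 7.45 CPM in the BT2 libraries, against 35.7 and 52.9 CPM in the vehicle libraries (-2.03 ± 0.33). Spry2 fell as well (-1.41 ± 0.24). Dusp1, a phosphatase of the same family, had 272 and 141 CPM in the BT2 libraries, against 409 and 322 CPM in the vehicle libraries and was not called (edgeR adjusted p = 0.299). With BT2 replicate 2 left out only 1 member of the list was called lower, and without vehicle replicate 2 there were 2. Of the 4 named here that fell, Spry4 and Phlda1 lost the call without BT2 replicate 2, Spry2 without vehicle replicate 2 and Dusp10 in both fits.

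Serum response factor (SRF) binds the CArG box, and induces both early genes and actin genes. Of 28 promoters of the actin and SRF target list, 6 (21.4%) held a CArG box on either strand within 250 bases before to 50 bases after the start of transcription, and of 20 promoters of the early factor list 4 (20%) did. Among all 11682 tested genes with a promoter in the RefSeq table (build GRCr8), 153 (1.31%) did. The share was 20 of 1184 genes called lower (1.69%) and 15 of 809 called higher (1.85%). The box was also in 2 of 10 promoters of the cardiomyocyte markers (20%), a list of which 0 members fell. The 3 stretches below, each the 100 bases before the start, show the box in capitals in an early factor and in 2 actin-linked genes that fell. They lie at chr20:21054442-21054541 (Egr2), chr10:106120952-106121051 (Actg1) and chr7:10370313-10370412 (Cnn2), all on the minus strand, and are written 5′ to 3′ towards the start.
Egr2: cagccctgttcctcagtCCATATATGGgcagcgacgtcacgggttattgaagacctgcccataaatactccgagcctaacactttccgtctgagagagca
Actg1: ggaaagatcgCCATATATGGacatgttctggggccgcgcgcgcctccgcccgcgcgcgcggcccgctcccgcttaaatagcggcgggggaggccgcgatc
Cnn2: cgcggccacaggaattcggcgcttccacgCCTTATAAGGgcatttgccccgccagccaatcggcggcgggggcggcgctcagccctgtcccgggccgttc
Egr2, another early growth response factor, had 10.7 and 6.66 CPM in the BT2 libraries, against 26.1 and 30.98 CPM in the vehicle libraries (-1.74 ± 0.25, edgeR adjusted p = 0.0109), a call lost without BT2 replicate 2 and without vehicle replicate 2.

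Cytoskeletal genes fell broadly. Of 33 actin cytoskeleton genes and SRF targets, 16 fell and 1 rose (median log2 fold change -0.69). Actg1, cytoplasmic gamma-actin, had 124 and 92.1 CPM in the BT2 libraries, against 269.9 and 338 CPM in the vehicle libraries (-1.495 ± 0.16, edgeR adjusted p = 0.00919), and Cnn2, the actin-binding protein calponin 2, had 16.3 and 14.6 CPM in the BT2 libraries, against 36.2 and 34.2 CPM in the vehicle libraries (-1.19 ± 0.12, edgeR adjusted p = 0.00919). Actb, cytoplasmic beta-actin, moved alike, with 703 and 629.5 CPM in the BT2 libraries, against 1533 and 1682 CPM in the vehicle libraries (-1.27 ± 0.14, edgeR adjusted p = 0.00919). Flnc, a muscle filamin and one of the most abundant RNAs here, had 4194 and 2541 CPM in the BT2 libraries, against 9242 and 16074 CPM in the vehicle libraries (-1.91 ± 0.35, edgeR adjusted p = 0.0168). Outside the list, Mkl1, which encodes the SRF coactivator MRTF-A, had 25.2 and 19.1 CPM in the BT2 libraries, against 50.8 and 56.8 CPM in the vehicle libraries (-1.28 ± 0.15, edgeR adjusted p = 0.00919). Tes, a focal adhesion protein, fell too (-1.58 ± 0.20). The sarcomeric genes Tpm1 and Acta1 were not called: Tpm1 had 9302 and 9177 CPM in the BT2 libraries, against 9845 and 11995 CPM in the vehicle libraries and Acta1 had 1108 and 1418 CPM in the BT2 libraries, against 1608 and 2074 CPM in the vehicle libraries, and neither was called (edgeR adjusted p = 0.361 and 0.311). Actg1, Cnn2 and Mkl1 were called in every fit, Actb and Tes lost the call without BT2 replicate 2, and Flnc lost it without BT2 replicate 2 and without vehicle replicate 2. Without BT2 replicate 2 the list had 2 lower calls, and without vehicle replicate 2 it had 6.

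YAP and TEAD, which respond to stretch and cell contact, share several of these targets. Of 21 genes of their signature 9 fell and 0 rose, or 8 fell and 1 rose with library totals (median -0.43 with TMM factors). Besides Ctgf they included Fjx1 (15.1 and 9.1995 CPM in BT2, 47.00 and 38.3 CPM in vehicle; -1.82 ± 0.27) and the kinase gene Nuak2 (16.9 and 9.99 CPM in BT2, 37.2 and 33.9 CPM in vehicle; -1.41 ± 0.22). Outside the signature, Vgll3, a TEAD cofactor, had 12.8 and 8.805 CPM in the BT2 libraries, against 37.4 and 44.7 CPM in the vehicle libraries (-1.94 ± 0.20, edgeR adjusted p = 0.00919). Vgll3 was called in every fit; Fjx1 lost its call without BT2 replicate 2 and Nuak2 without vehicle replicate 2. The signature had 2 lower calls without BT2 replicate 2 and 4 without vehicle replicate 2.

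Stress genes of the cardiomyocyte fell alongside. Of 24 genes of the natriuretic peptide and cardiac stress list, 12 fell and 2 rose (median -0.97). Xirp1, a protein of the intercalated disc that binds actin, had 2067 and 2018 CPM in the BT2 libraries, against 4829 and 6205 CPM in the vehicle libraries (-1.43 ± 0.15, edgeR adjusted p = 0.00919) and kept its call in every fit. The related Xirp2 had 946 and 750.2 CPM in the BT2 libraries, against 2447 and 3020 CPM in the vehicle libraries (-1.69 ± 0.23), Lmcd1, a LIM domain regulator of hypertrophic growth, had 515 and 377 CPM in the BT2 libraries, against 1436 and 2262 CPM in the vehicle libraries (-2.05 ± 0.24), and Mustn1, a small muscle protein, had 18.9 and 20.7 CPM in the BT2 libraries, against 76.3 and 53.7 CPM in the vehicle libraries (-1.71 ± 0.21). These 3 lost the call without BT2 replicate 2. Outside the list, Klhl40, a Kelch protein that stabilises thin filament proteins in muscle, had 61.8 and 58.4 CPM in the BT2 libraries, against 172 and 174 CPM in the vehicle libraries. Its libraries agreed closely within each group (-1.53 ± 0.13, edgeR adjusted p = 0.00552), and it was called in every fit. Nppb, the B-type natriuretic peptide gene, had 546 and 346 CPM in the BT2 libraries, against 1233 and 1606 CPM in the vehicle libraries (-1.67 ± 0.33, edgeR adjusted p = 0.0203), a call lost without BT2 replicate 2 and without vehicle replicate 2. Nppa, the atrial peptide gene, had 215 and 172 CPM in the BT2 libraries, against 266 and 307 CPM in the vehicle libraries and was not called (edgeR adjusted p = 0.242). Corin, the protease that activates these peptides, rose, with 195 and 239.7 CPM in the BT2 libraries, against 119.7 and 85.8 CPM in the vehicle libraries (1.09 ± 0.22), a call lost in the same 2 fits as that of Nppb. With BT2 replicate 2 left out the list had 1 lower call, and without vehicle replicate 2 it had 4.

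The machinery that builds ribosomes was the list with the highest share of calls in the comparison. Ribosome biogenesis takes place in the nucleolus, where RNA polymerase I makes ribosomal RNA and a set of processing factors cut, modify and assemble it. Of 40 such genes measured, 33 fell and 0 rose (82.5% lower, against 9.73% of all genes tested), with a median log2 fold change of -0.70. The decreases were modest and even. Bop1, a rRNA processing factor that works with Pes1, had 33.6 and 28.3 CPM in the BT2 libraries, against 56.6 and 61.4 CPM in the vehicle libraries (-0.93 ± 0.13, edgeR adjusted p = 0.0109). Ddx21, a nucleolar RNA helicase, had 50.03 and 46.7 CPM in the BT2 libraries, against 87.9 and 89.4 CPM in the vehicle libraries (-0.87 ± 0.12, edgeR adjusted p = 0.0109). Polr1b, the second largest subunit of RNA polymerase I, had 24.02 and 18.6 CPM in the BT2 libraries, against 41.02 and 47.4 CPM in the vehicle libraries (-1.06 ± 0.15), and Wdr43 had 79.6 and 63.2 CPM in the BT2 libraries, against 133 and 163 CPM in the vehicle libraries (-1.05 ± 0.16). In each of these 4 genes the higher BT2 library stayed below the lower vehicle library, as 1 side stayed clear of the other in all 2495 called genes. The abundant nucleolar proteins fell less: Ncl (nucleolin) had 233 and 229 CPM in the BT2 libraries, against 307 and 354 CPM in the vehicle libraries (-0.52 ± 0.13) and Npm1 (nucleophosmin) had 191 and 176 CPM in the BT2 libraries, against 249.6 and 294 CPM in the vehicle libraries (-0.57 ± 0.14). Polr1c was the 1 member with a positive log2 fold change (35.9 and 30.6 CPM in BT2, 31.4 and 31.1 CPM in vehicle; edgeR adjusted p = 0.647). The calls leaned on 2 libraries: 24 members were called lower without BT2 replicate 1 and 32 without vehicle replicate 1, but 0 without BT2 replicate 2 and 3 without vehicle replicate 2. With library totals 24 fell and with upper quartile factors 30 did, and 0 rose with either.

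**Figure D3:**
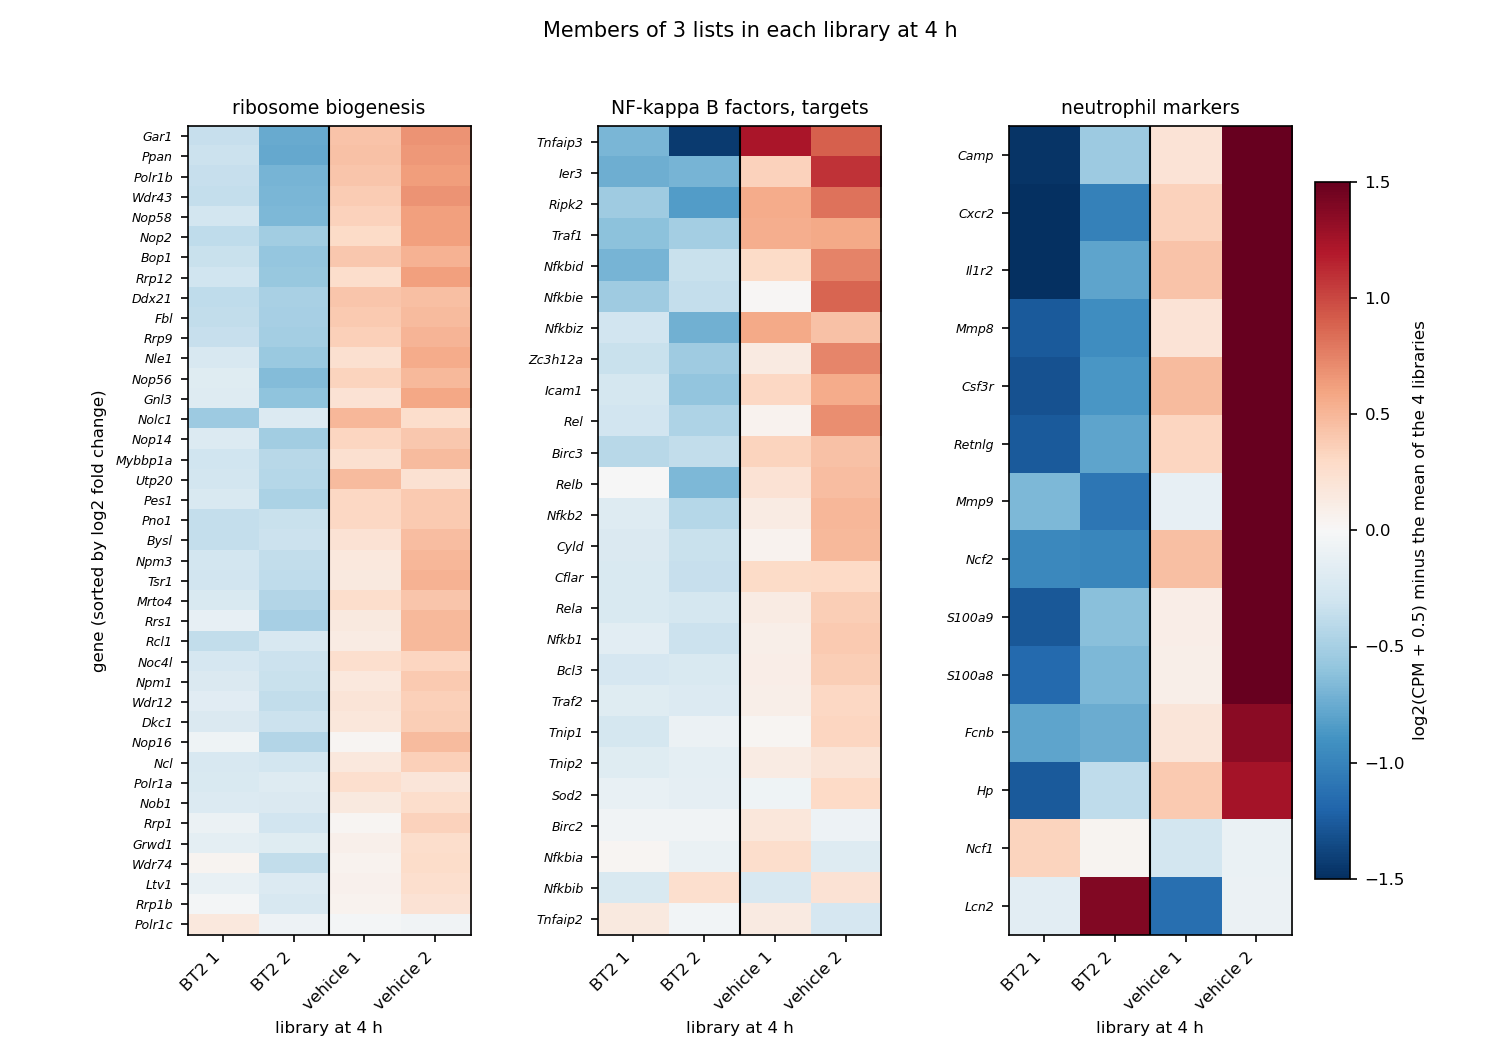
log2(CPM + 0.5) of each measured member minus its mean over the 4 libraries, with the 2 BT2 libraries left of the 2 vehicle libraries and genes sorted by log2 fold change, for ribosome biogenesis (40 genes), NF-kappa B factors and feedback targets (26) and neutrophil markers (14); colours end at ± 1.5. In the first panel both BT2 columns lie below both vehicle columns in most rows, and in the third panel most of the contrast comes from the second vehicle column, where the markers sum to 2084 CPM.

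Promoters of these genes often carry the E-box CACGTG, to which Myc and its partners bind. It was found in 16 of 37 promoters of the list (43.2%), against 1061 of all 11682 (9.08%). It was present in 140 of 1184 promoters of genes called lower (11.8%), in 74 of 809 of genes called higher (9.15%) and in 847 of 9689 promoters of genes that were not called (8.74%). Other lists held it as well. It was in 5 of 17 promoters of the aminoacyl-tRNA synthetase genes described below (29.4%). It was also in 8 of 28 promoters of autophagy and lysosome genes (28.6%), in 4 of 16 of clock genes (25%) and in 4 of 21 of FoxO targets (19%). Among genes called in every fit that passed the naming rule, 8 of 37 promoters of those that fell held it (21.6%). Of those that rose, 0 of 15 did. The palindrome reads the same on both strands. The stretches below are the 100 bases before the start of 3 nucleolar genes that fell, with the E-box in capitals. They lie at chr1:254546650-254546749 (Npm3, minus strand), chr14:83074246-83074345 (Pes1, plus strand) and chr16:6219783-6219882 (Gnl3, minus strand) of GRCr8.
Npm3: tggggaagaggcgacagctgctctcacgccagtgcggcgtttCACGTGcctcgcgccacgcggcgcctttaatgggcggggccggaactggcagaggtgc
Pes1: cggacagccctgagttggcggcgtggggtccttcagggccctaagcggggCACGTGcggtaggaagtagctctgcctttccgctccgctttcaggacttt
Gnl3: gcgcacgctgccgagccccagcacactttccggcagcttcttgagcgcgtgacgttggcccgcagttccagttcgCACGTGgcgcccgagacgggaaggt
The E-box starts 58 bases before the start of transcription in Npm3, 50 in Pes1 and 25 in Gnl3. Npm3, a nucleoplasmin family chaperone, had 10.7 and 9.99 CPM in the BT2 libraries, against 14.7 and 18.6 CPM in the vehicle libraries (-0.697 ± 0.20, edgeR adjusted p = 0.0488). Pes1, a factor of large subunit assembly, had 57.3 and 48.5 CPM in the BT2 libraries, against 83.9 and 88.7 CPM in the vehicle libraries (-0.71 ± 0.11, edgeR adjusted p = 0.011), and Gnl3 (nucleostemin) had 88.8 and 66.4 CPM in the BT2 libraries, against 118 and 152 CPM in the vehicle libraries (-0.801 ± 0.18, edgeR adjusted p = 0.0253). All 3 calls were lost with BT2 replicate 2 or vehicle replicate 2 left out, and that of Npm3 also without BT2 replicate 1.

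Other parts of the protein synthesis apparatus had lower shares of calls. Of 20 cytosolic aminoacyl-tRNA synthetase genes, which charge tRNAs with amino acids, 10 fell with TMM factors, 5 fell with library totals and 0 rose with either (median log2 fold change -0.42 with TMM factors). Yars, which charges tyrosine, had 69.9 and 60.5 CPM in the BT2 libraries, against 109.7 and 139.9 CPM in the vehicle libraries (-0.94 ± 0.14, edgeR adjusted p = 0.011), and Cars, which charges cysteine, had 55.9 and 43.01 CPM in the BT2 libraries, against 88.2 and 101 CPM in the vehicle libraries (-0.94 ± 0.14). Qars, which charges glutamine, had 164 and 164 CPM in the BT2 libraries, against 152 and 169 CPM in the vehicle libraries and was not called (edgeR adjusted p = 0.843). Of 43 ribosomal protein genes, 7 fell with TMM factors, 3 with upper quartile factors and 0 with library totals. Their values lay close: Rpsa had 440.4 and 421 CPM in the BT2 libraries, against 571 and 634 CPM in the vehicle libraries (-0.48 ± 0.11), and Rplp0 had 693 and 712 CPM in the BT2 libraries, against 859 and 978 CPM in the vehicle libraries and was not called (edgeR adjusted p = 0.0503). Rpl8, Rplp2, Rps6 and Rps9 are listed at 0 in the 4 libraries. Of 10 measured genes of polyamine metabolism, 5 fell and 1 rose. Odc1, ornithine decarboxylase, which makes the first polyamine, had 208 and 196 CPM in the BT2 libraries, against 275 and 327 CPM in the vehicle libraries (-0.58 ± 0.12), and Azin1, which protects that enzyme, had 339.8 and 273 CPM in the BT2 libraries, against 495 and 758 CPM in the vehicle libraries (-1.03 ± 0.21). Without BT2 replicate 2 none of these 3 lists had a call in either direction; without vehicle replicate 2 the synthetases had 1, and the other lists had none.

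NF-kappa B is the transcription factor family behind much of the response to TNF, interleukin-1 and bacterial products, and many of its targets switch it off again. Of 26 such factors and targets 13 fell and 0 rose (median log2 fold change -0.62). Tnfaip3, which encodes the ubiquitin-editing inhibitor A20, had 31.1 and 18.3 CPM in the BT2 libraries, against 118 and 93.6 CPM in the vehicle libraries (-2.11 ± 0.27, edgeR adjusted p = 0.0106). Ripk2, the kinase downstream of NOD receptors, had 26.2 and 21.3 CPM in the BT2 libraries, against 56.6 and 67.9 CPM in the vehicle libraries (-1.39 ± 0.14, edgeR adjusted p = 0.00919). Both were called in every fit, as was Cd274, which encodes the T cell inhibitory ligand PD-L1 and lies outside the list, with 24.3 and 26.8 CPM in the BT2 libraries, against 54.3 and 63.8 CPM in the vehicle libraries (-1.21 ± 0.12). The family's own subunits fell by less, Nfkb1 by 0.49 and Rela by 0.50 on the log2 scale. Nfkbia, the classical inhibitor, had 274 and 251 CPM in the BT2 libraries, against 322 and 235 CPM in the vehicle libraries, and its groups overlapped (edgeR adjusted p = 0.805). Sod2, the mitochondrial superoxide dismutase, had 693 and 683 CPM in the BT2 libraries, against 718 and 922 CPM in the vehicle libraries and was not called (edgeR adjusted p = 0.248). The list had 11 lower calls without BT2 replicate 1, 2 without BT2 replicate 2, 16 without vehicle replicate 1 and 3 without vehicle replicate 2.

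The kappa B motif was found in 9 of 21 promoters of this list (42.9%), against 591 of all 11682 (5.06%). The list was made up of NF-kappa B factors and targets, so this share follows from the choice of genes and not from BT2. The motif was in 81 of 1184 promoters of genes called lower (6.84%), 36 of 809 called higher (4.45%) and 474 of 9689 not called (4.89%). Other lists held the motif as well: 8 of 31 chemokine promoters (25.8%) and 6 of 25 Notch and Wnt promoters (24%). Of 33 Notch and Wnt genes tested, 5 fell and 4 rose. The stretches below show it in capitals in 3 genes that fell, in the 100 bases before the start at chr1:15543980-15544079 (Tnfaip3, minus strand), chr11:58251621-58251720 (Nfkbiz, plus strand) and chr14:17479322-17479421 (Cxcl1, minus strand) of GRCr8.
Tnfaip3: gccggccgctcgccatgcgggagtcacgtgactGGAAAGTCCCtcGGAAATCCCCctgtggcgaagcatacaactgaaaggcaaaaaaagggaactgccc
Nfkbiz: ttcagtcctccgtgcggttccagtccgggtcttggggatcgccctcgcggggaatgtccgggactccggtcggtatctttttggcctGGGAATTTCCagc
Cxcl1: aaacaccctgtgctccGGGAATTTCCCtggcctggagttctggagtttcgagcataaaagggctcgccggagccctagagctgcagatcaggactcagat
Tnfaip3 holds 2 matches that do not touch, starting 67 and 55 bases before the start. Cxcl1 holds 2 overlapping matches on opposite strands, starting 84 and 83 bases before the start. Nfkbiz, an atypical I kappa B protein, had 65.9 and 48.4 CPM in the BT2 libraries, against 119 and 109 CPM in the vehicle libraries (-0.998 ± 0.20, edgeR adjusted p = 0.0186). Cxcl1, a chemokine that attracts neutrophils, had 109 and 49.7 CPM in the BT2 libraries, against 296 and 259.9 CPM in the vehicle libraries (-1.81 ± 0.44, edgeR adjusted p = 0.0379), with the 2 BT2 libraries more than 2-fold apart. Both calls were lost with BT2 replicate 2 or vehicle replicate 2 left out, and that of Cxcl1 also without vehicle replicate 1.

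Receptors and products of innate immune cells were lower with BT2, and by large factors, but the second vehicle library carried much of the difference. Of 37 innate pattern and Fc receptors 18 fell and 0 rose (median log2 fold change -1.32). Trem1, an amplifier of inflammatory signals on myeloid cells, had 3.81 and 8.07 CPM in the BT2 libraries, against 32.6 and 71.5 CPM in the vehicle libraries (-3.11 ± 0.56, edgeR adjusted p = 0.0177). Tlr2, which senses bacterial lipopeptides, had 15.4 and 19.1 CPM in the BT2 libraries, against 42.2 and 122 CPM in the vehicle libraries (-2.26 ± 0.47, edgeR adjusted p = 0.0248). Fcgr1a, a high-affinity IgG receptor, had 6.898 and 6.72 CPM in the BT2 libraries, against 16.9 and 44.02 CPM in the vehicle libraries (-2.18 ± 0.42, edgeR adjusted p = 0.0189). In all 3 genes the second vehicle library was more than 2-fold above the first. The first was still above both BT2 libraries, but no called gene had overlapping groups. Cd14, a co-receptor for lipopolysaccharide, had 25.2 and 26.8 CPM in the BT2 libraries, against 36.8 and 39.6 CPM in the vehicle libraries and was not called (edgeR adjusted p = 0.0956). The calls of Trem1, Tlr2 and Fcgr1a were lost without BT2 replicate 1 and without BT2 replicate 2, and that of Trem1 also without vehicle replicate 2. The list had 2 lower calls without BT2 replicate 1, 0 without BT2 replicate 2, 18 without vehicle replicate 1 and 4 without vehicle replicate 2.

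Neutrophil markers were lower alongside these genes, and markers of other leukocytes less clearly so. Of 14 measured neutrophil markers 7 fell and 0 rose (median -2.19). Csf3r, the receptor for G-CSF, had 15.3 and 20.9 CPM in the BT2 libraries, against 53.6 and 127 CPM in the vehicle libraries (-2.32 ± 0.51, edgeR adjusted p = 0.0285), and Mmp8, neutrophil collagenase, had 13.6 and 17.4 CPM in the BT2 libraries, against 38.6 and 134 CPM in the vehicle libraries (-2.48 ± 0.54). S100a9, an abundant neutrophil calcium-binding protein, had 84.2 and 132 CPM in the BT2 libraries, against 218 and 709 CPM in the vehicle libraries and missed the threshold (edgeR adjusted p = 0.0522). Of the 6 neutrophil markers that were not tested, Ltf is listed at 0 in the 4 libraries and Cxcr1, Mpo, Cd177, Ngp and Elane held between 1 and 37 counts over all 4. Of 18 T, B and NK lymphocyte markers 1 fell and 0 rose (median -0.52), and of 8 mast cell markers 0 were called. Of 22 monocyte and macrophage markers 5 fell and 1 rose. Their median was -0.19, with 12 log2 fold changes negative and 10 positive. Their sum was 1306 and 1506 CPM in BT2, against 1665 and 2174 CPM in vehicle. Cd68 fell (11.97 and 12.02 CPM in BT2, 19.04 and 21.1 CPM in vehicle; -0.75 ± 0.15), while Folr2, a marker of resident macrophages, rose (8.09 and 9.71 CPM in BT2, 5.44 and 4.49 CPM in vehicle; 0.86 ± 0.17). The part that the number of neutrophils and monocytes has in the changes of innate receptors, interleukin-1 genes and chemokines was not tested. Without vehicle replicate 2 the neutrophil list had 2 lower calls and the monocyte list 1; without BT2 replicate 1 and without BT2 replicate 2 neither list had a lower call. Folr2 lost its call with either second replicate left out. Cd68 kept its call only when vehicle replicate 1 was the library left out.

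Interleukin-1 genes followed the same libraries. Of 21 genes of the interleukin-1 family and inflammasome 8 fell and 0 rose (median -1.03). Nlrp3, the sensor of the best known inflammasome, had 8.48 and 6.49 CPM in the BT2 libraries, against 19.5 and 47.1 CPM in the vehicle libraries (-2.18 ± 0.41, edgeR adjusted p = 0.0179), and Nlrc4, another sensor, had 1.74 and 1.52 CPM in the BT2 libraries, against 3.92 and 8.62 CPM in the vehicle libraries (-1.97 ± 0.38). Il1r1, the signalling receptor, had 266 and 213 CPM in the BT2 libraries, against 323 and 278 CPM in the vehicle libraries and was not called (edgeR adjusted p = 0.171). Without BT2 replicate 1 the list had 1 lower call, and without BT2 replicate 2 or vehicle replicate 2 it had 0. Among 12 measured colony-stimulating factors and receptors 5 fell and 0 rose. Csf1, the macrophage growth factor, had 199.8 and 83.4 CPM in the BT2 libraries, against 500.2 and 593 CPM in the vehicle libraries (-1.95 ± 0.40, edgeR adjusted p = 0.0227), and the GM-CSF receptor gene Csf2ra had 22.1 and 23.1 CPM in the BT2 libraries, against 34.7 and 55.4 CPM in the vehicle libraries (-1.001 ± 0.20). Csf2 was the 1 member called without BT2 replicate 2 and without vehicle replicate 2.

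Chemokines were mixed in size and stability. Of 41 chemokine and receptor genes 11 fell and 1 rose (median -1.02). Cxcl16, a membrane-bound chemokine, had 42.6 and 33.02 CPM in the BT2 libraries, against 68.8 and 61.8 CPM in the vehicle libraries (-0.79 ± 0.13, edgeR adjusted p = 0.0124), a call lost without BT2 replicate 2. Ccl2, which attracts monocytes, had 272 and 62.03 CPM in the BT2 libraries, against 769 and 774 CPM in the vehicle libraries. The 2 vehicle libraries agreed and the 2 BT2 libraries were more than 4-fold apart, and the gene was not called (-2.21 ± 0.65, edgeR adjusted p = 0.0647). Cxcl12, a chemokine made by resident stromal cells, had 363 and 191 CPM in the BT2 libraries, against 173 and 241 CPM in the vehicle libraries, with overlapping groups (edgeR adjusted p = 0.36). With BT2 replicate 2 left out and without vehicle replicate 2 the list had 1 lower call each. Ptgs2, which encodes the prostaglandin-forming enzyme COX-2, had 10.4 and 8.58 CPM in the BT2 libraries, against 32.9 and 22.7 CPM in the vehicle libraries (-1.55 ± 0.34, edgeR adjusted p = 0.0248), a call lost in each of the 4 fits without 1 library. Of 28 genes of the prostanoid and leukotriene pathway 8 fell and 0 rose (6 and 1 with library totals), and 0 fell without BT2 replicate 1, without BT2 replicate 2 or without vehicle replicate 2. Of 22 complement genes measured 4 fell and 0 rose, with a median of -0.10 with TMM factors and 0.02 with library totals, and 0 fell without BT2 replicate 2 or without vehicle replicate 2.

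Of 40 interferon response genes 10 fell and 0 rose (median -0.39). Ifit3, an antiviral protein induced by type I interferon, had 22.3 and 28.9 CPM in the BT2 libraries, against 95.3 and 112 CPM in the vehicle libraries (-2.01 ± 0.24, edgeR adjusted p = 0.00919), the guanylate-binding protein gene Gbp2 had 19.7 and 25.7 CPM in the BT2 libraries, against 55.9 and 45.002 CPM in the vehicle libraries (-1.14 ± 0.16, edgeR adjusted p = 0.0109), and Oasl2, of the oligoadenylate synthetase-like family, had 14.2 and 17.05 CPM in the BT2 libraries, against 36.2 and 28.6 CPM in the vehicle libraries (-1.04 ± 0.15, edgeR adjusted p = 0.0109). These 3 were called in every fit, and here the second vehicle library was not the higher one throughout. The list had 3, 4, 9 and 5 lower calls without BT2 replicate 1, BT2 replicate 2, vehicle replicate 1 and vehicle replicate 2.

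The interferon-stimulated response element was searched on both strands as GAAA, 2 bases of any kind and GAAA again. It was found in 18 of 31 promoters of the list (58.1%), against 363 of all 11682 (3.11%). The list was made up of interferon response genes, so this share follows from the choice of genes and not from BT2. The element was in 34 of 1184 promoters of all genes called lower (2.87%) and 17 of 809 called higher (2.1%). It is shown in capitals in the 100 bases before the start of 3 genes that fell, at chr1:241527226-241527325 (Ifit3), chr2:234005627-234005726 (Gbp2) and chr1:142239959-142240058 (Isg20) of GRCr8, all on the plus strand. In the first 2 the match is on the opposite strand, so the capitals are its complement read backwards.
Ifit3: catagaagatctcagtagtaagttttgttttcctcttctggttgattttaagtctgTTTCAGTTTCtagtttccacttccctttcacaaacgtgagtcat
Gbp2: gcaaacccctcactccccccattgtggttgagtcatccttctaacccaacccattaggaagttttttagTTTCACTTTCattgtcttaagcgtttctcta
Isg20: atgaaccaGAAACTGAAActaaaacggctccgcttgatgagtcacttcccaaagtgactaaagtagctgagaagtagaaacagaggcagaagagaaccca
Isg20, an exonuclease that degrades viral RNA, had 3.81 and 3.73 CPM in the BT2 libraries, against 7.83 and 7.22 CPM in the vehicle libraries (-0.996 ± 0.21, edgeR adjusted p = 0.0202), a call kept only when vehicle replicate 1 was the library left out.

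Adhesion, clotting and matrix genes gave the vascular and stromal side. Of 32 leukocyte adhesion molecules and integrins 12 fell and 3 rose. Icam1, the endothelial ligand of leukocyte integrins, had 41.6 and 33.1 CPM in the BT2 libraries, against 62.4 and 74.1 CPM in the vehicle libraries (-0.87 ± 0.14, edgeR adjusted p = 0.0111). Vcam1, its counterpart for other leukocyte integrins, rose, with 20.1 and 17.9 CPM in the BT2 libraries, against 11.2 and 10.6 CPM in the vehicle libraries (0.803 ± 0.14, edgeR adjusted p = 0.0145). Itgb1, the common beta subunit of matrix integrins, had 1032 and 968 CPM in the BT2 libraries, against 1642 and 1963 CPM in the vehicle libraries (-0.85 ± 0.13). Icam1 and Vcam1 lost their calls with BT2 replicate 2 or vehicle replicate 2 left out, and Itgb1 without BT2 replicate 2, where the list had no call at all; without vehicle replicate 2 it had 3 lower calls and 0 higher. Of 23 coagulation and fibrinolysis genes 10 fell with TMM factors, and with library totals 6 fell and 1 rose. The list had 1 lower call without BT2 replicate 2 and 3 without vehicle replicate 2. Tfpi2, a protease inhibitor deposited in matrix, had 18.8 and 26.3 CPM in the BT2 libraries, against 53.6 and 58.04 CPM in the vehicle libraries (-1.303 ± 0.18, edgeR adjusted p = 0.0109) and was called in every fit. Vwf, von Willebrand factor, had 255 and 197 CPM in the BT2 libraries, against 271 and 207 CPM in the vehicle libraries and was not called (edgeR adjusted p = 0.779).

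Among 41 matrix and matricellular genes 11 fell and 2 rose (median -0.27). Thbs1, thrombospondin 1, had 1131 and 767 CPM in the BT2 libraries, against 3386 and 3088 CPM in the vehicle libraries (-1.77 ± 0.23, edgeR adjusted p = 0.0106), and Postn, periostin, had 46.2 and 28.4 CPM in the BT2 libraries, against 153 and 124 CPM in the vehicle libraries (-1.898 ± 0.26, edgeR adjusted p = 0.011). P4ha1, a subunit of the enzyme that hydroxylates collagen prolines, had 41.6 and 49.8 CPM in the BT2 libraries, against 87.7 and 78.2 CPM in the vehicle libraries (-0.86 ± 0.12, edgeR adjusted p = 0.0109). Sned1, which encodes an extracellular matrix glycoprotein, rose, with 44.96 and 56.3 CPM in the BT2 libraries, against 8.05 and 9.88 CPM in the vehicle libraries (2.49 ± 0.20, edgeR adjusted p = 0.00552). The fibrillar collagen gene Col3a1 had 1248 and 1203 CPM in the BT2 libraries, against 1244 and 941 CPM in the vehicle libraries (edgeR adjusted p = 0.565) and Sparc had 2061 and 2032 CPM in the BT2 libraries, against 2206 and 1761 CPM in the vehicle libraries (edgeR adjusted p = 0.853), and neither was called. P4ha1 and Sned1 were called in every fit, and Thbs1 and Postn lost the call without BT2 replicate 2. The list had 2 lower calls in that fit and 5 without vehicle replicate 2. Of 31 metalloproteinase and inhibitor genes 9 fell and 4 rose. Timp1, the inducible inhibitor, had 127 and 120.5 CPM in the BT2 libraries, against 259 and 395 CPM in the vehicle libraries (-1.402 ± 0.21, edgeR adjusted p = 0.011), and Adamts15, a proteoglycan-cleaving enzyme, rose, with 108 and 70.5 CPM in the BT2 libraries, against 21.98 and 18.2 CPM in the vehicle libraries (2.16 ± 0.37, edgeR adjusted p = 0.0146). The call of Timp1 was lost without BT2 replicate 2, and that of Adamts15 without BT2 replicate 2 and without vehicle replicate 2. Without BT2 replicate 2 this list had no call, and without vehicle replicate 2 it had 4 lower calls.

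Stress chaperones fell. Of 32 cytosolic heat shock genes 15 fell and 0 rose (median -0.38). Hsph1, the HSP110 chaperone, had 106 and 115 CPM in the BT2 libraries, against 217 and 282 CPM in the vehicle libraries (-1.18 ± 0.13, edgeR adjusted p = 0.00919) and was called in every fit. Dnaja1, an HSP40 cochaperone, had 171 and 148 CPM in the BT2 libraries, against 283 and 391 CPM in the vehicle libraries (-1.08 ± 0.15, edgeR adjusted p = 0.0109). Hspb1, the small chaperone HSP27, had 1129 and 687 CPM in the BT2 libraries, against 2038 and 2875 CPM in the vehicle libraries (-1.44 ± 0.26). Cryab, alpha B-crystallin and the most abundant member that was not called, had 4249.9 and 3741 CPM in the BT2 libraries, against 4942 and 6621 CPM in the vehicle libraries (edgeR adjusted p = 0.082). Hspa8, the constitutive HSC70, fell by 0.48 on the log2 scale (705 and 623 CPM in BT2, 822 and 1026 CPM in vehicle; edgeR adjusted p = 0.047). With BT2 replicate 2 left out the list had 1 lower call and without vehicle replicate 2 it had 2. The call of Dnaja1 was lost without BT2 replicate 2, those of Hspb1 and Hspa8 in both fits. With library totals 10 members fell and 0 rose. The heat shock element was searched on both strands as GAA, TTC and GAA with 2 bases of any kind between them. It was found in 6 of 28 promoters of the list (21.4%) and in 59 of all 11682 (0.505%). The list was made up of heat shock genes, so this share follows from the choice of genes and not from BT2. The element was in 14 of 1184 promoters of genes called lower (1.18%) and 2 of 809 called higher (0.247%). It is in capitals in the 100 bases before the start of Hsph1 (chr12:10427268-10427367) and Hspa8 (chr8:50080414-50080513), both on the plus strand of GRCr8, where the match lies on the opposite strand.
Hsph1: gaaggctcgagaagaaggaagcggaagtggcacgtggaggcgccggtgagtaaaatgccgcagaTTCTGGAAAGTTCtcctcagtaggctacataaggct
Hspa8: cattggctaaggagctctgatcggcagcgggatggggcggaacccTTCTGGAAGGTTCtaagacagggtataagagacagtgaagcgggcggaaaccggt
The element starts 36 bases before the start of transcription in Hsph1 and 55 in Hspa8.

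In 3 other stress lists more members fell than rose. Of 31 genes of the ATF4 and amino acid response, which is induced by shortage of amino acids and by misfolded protein, 11 fell and 0 rose. Slc1a5, a glutamine transporter, had 30.8 and 22.5 CPM in the BT2 libraries, against 74.9 and 85.9 CPM in the vehicle libraries (-1.597 ± 0.22, edgeR adjusted p = 0.0109), Asns, asparagine synthetase, had 6.98 and 7.28 CPM in the BT2 libraries, against 16.97 and 17.4 CPM in the vehicle libraries (-1.27 ± 0.20), and Atf4 itself had 329 and 272 CPM in the BT2 libraries, against 498 and 666 CPM in the vehicle libraries (-0.95 ± 0.16). Slc3a2, a subunit of amino acid exchangers, had 154 and 201 CPM in the BT2 libraries, against 145 and 175 CPM in the vehicle libraries and overlapped between groups (edgeR adjusted p = 0.592). Of 25 endoplasmic reticulum chaperone genes 8 fell with TMM factors and 3 with library totals; Xbp1, a factor of the unfolded protein response, had 89.5 and 75.7 CPM in the BT2 libraries, against 126 and 144 CPM in the vehicle libraries (-0.71 ± 0.12). Of 35 apoptosis genes and p53 targets 16 fell and 2 rose with TMM factors, and 10 fell and 2 rose with library totals. Casp8, the initiator caspase of death receptors, had 7.22 and 6.49 CPM in the BT2 libraries, against 18.7 and 14.9 CPM in the vehicle libraries (-1.29 ± 0.16, edgeR adjusted p = 0.00919). The growth arrest genes Gadd45g (159 and 115 CPM in BT2, 372 and 534 CPM in vehicle; -1.73 ± 0.21) and Gadd45b (30.8 and 33.8 CPM in BT2, 55.4 and 63.2 CPM in vehicle; -0.87 ± 0.11) and the kinase gene Plk3 (15.9 and 11.6 CPM in BT2, 35.4 and 38.6 CPM in vehicle; -1.44 ± 0.17) were called in every fit. Slc1a5 and Casp8 lost the call without BT2 replicate 2, and Asns, Atf4 and Xbp1 without BT2 replicate 2 and without vehicle replicate 2. Without BT2 replicate 2 the ATF4 list had 0 lower calls, the chaperones 0 and the apoptosis list 3; without vehicle replicate 2 they had 1, 0 and 7. Of 32 NRF2 targets, the antioxidant programme, 4 fell and 2 rose with TMM factors (12.5% and 6.2%, against 9.73% and 6.67% of all genes tested). With library totals 2 of these targets fell and 4 rose. Without 1 library their lower calls lay between 0, without BT2 replicate 2 or vehicle replicate 2, and 11, without vehicle replicate 1.

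**Figure D4:**
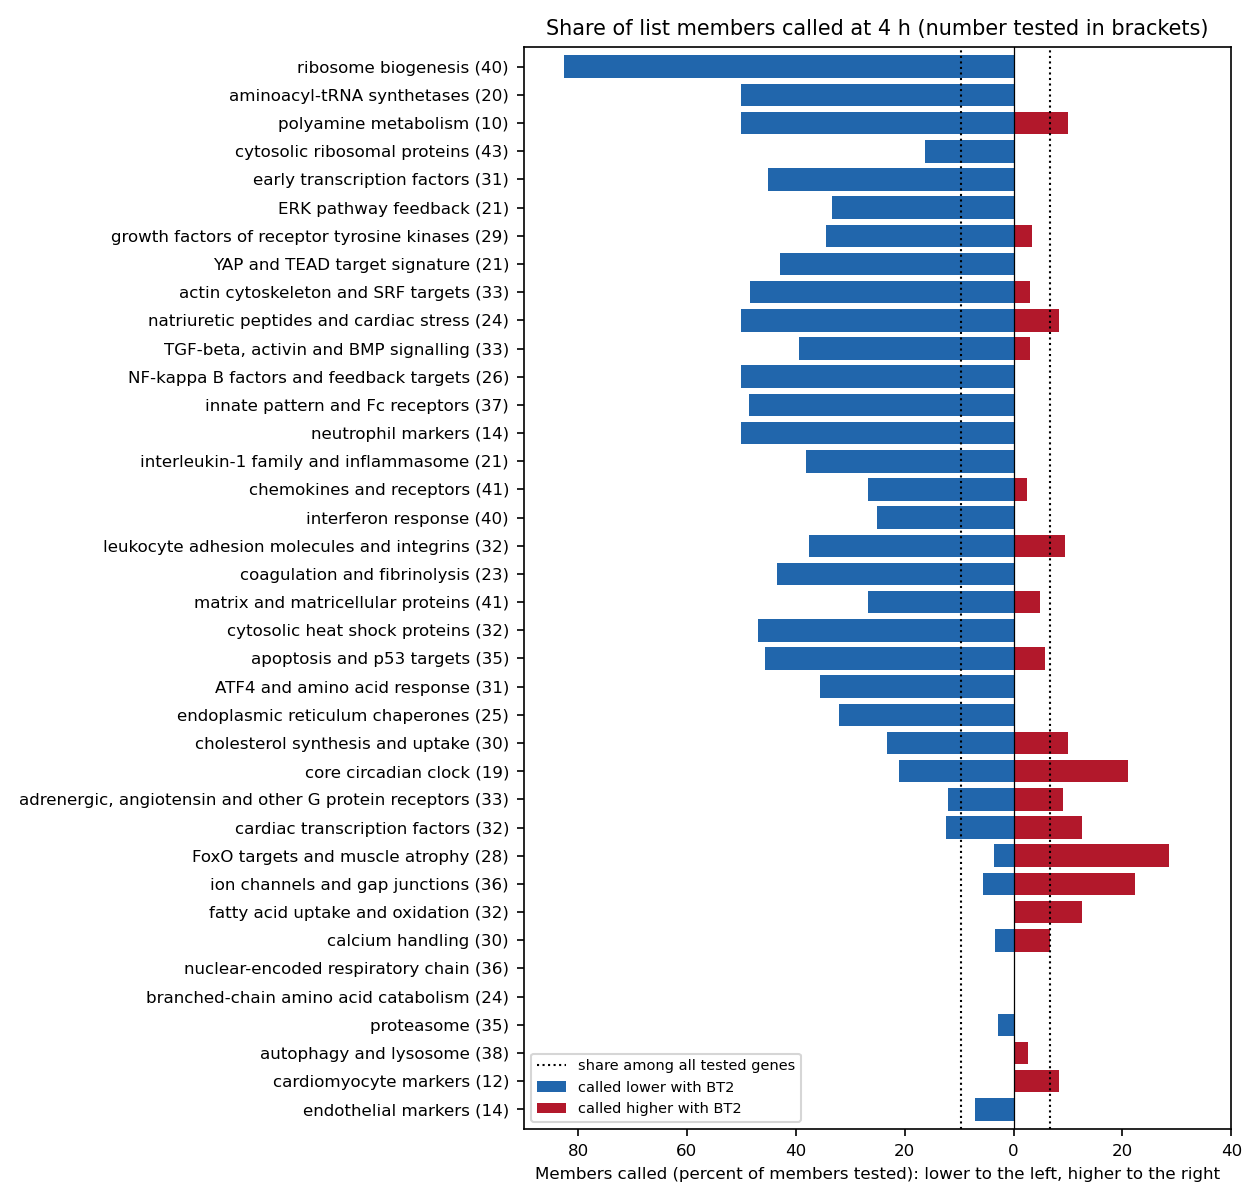
Percent of the measured members that were called lower (left of 0) or higher (right of 0) with BT2 at 4 h, for a selection of the 66 lists. The number of members measured is in brackets. Lists left out of the plot include some near the shares over all tested genes, such as cell cycle (8.6% lower, 0% higher). They also include some well above, such as the TNF superfamily (37.5% lower, 0% higher). Dotted lines mark the shares over all tested genes, 9.73% lower and 6.67% higher; ribosome biogenesis reaches 82.5% lower and FoxO targets have 8 of 28 members higher.

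The 19 genes called higher in every fit span several functions. Lvrn, encoding the aminopeptidase laeverin, had 13.004 and 14.3 CPM in the BT2 libraries, against 2.94 and 1.68 CPM in the vehicle libraries (2.602 ± 0.28, edgeR adjusted p = 0.00919). Htra3, a secreted serine protease, had 177 and 196 CPM in the BT2 libraries, against 71.3 and 55.9 CPM in the vehicle libraries (1.55 ± 0.16, edgeR adjusted p = 0.00919). Mitf, a bHLH transcription factor of the MiT family, had 69.1 and 69.03 CPM in the BT2 libraries, against 30.5 and 20.7 CPM in the vehicle libraries, with the BT2 libraries nearly equal (1.44 ± 0.18, edgeR adjusted p = 0.00919). Cpt1a, which encodes the liver-type carnitine palmitoyltransferase that admits fatty acids to mitochondria, had 112 and 93.2 CPM in the BT2 libraries, against 46.02 and 36.2 CPM in the vehicle libraries (1.32 ± 0.17, edgeR adjusted p = 0.00954). Kcnj5, a subunit of the G protein-gated potassium channel that slows the heart beat, had 58.5 and 49.6 CPM in the BT2 libraries, against 27.2 and 19.3 CPM in the vehicle libraries (1.22 ± 0.16, edgeR adjusted p = 0.0106). Ctdspl, a small phosphatase, had 27.04 and 26.6 CPM in the BT2 libraries, against 11.6 and 7.36 CPM in the vehicle libraries (1.52 ± 0.19), and Gas1, a growth arrest protein of the cell surface, had 131 and 117 CPM in the BT2 libraries, against 68.7 and 50.05 CPM in the vehicle libraries (1.07 ± 0.15). Slc38a3, a glutamine transporter, had 77.9 and 74.6 CPM in the BT2 libraries, against 41.1 and 38.1 CPM in the vehicle libraries (0.95 ± 0.13), and Ppat, which catalyses the first committed step of purine synthesis, had 123 and 112 CPM in the BT2 libraries, against 71.9 and 69.3 CPM in the vehicle libraries (0.73 ± 0.09). The remaining 9 beside Sned1 were Tppp3, Zfp266, Zbtb25, Fam212b, Tp53i13, Kbtbd4, Zfp958, Man1c1 and Iffo1, whose log2 fold changes lay between 0.73 and 1.27.

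Of 36 ion channel and gap junction genes 8 rose and 2 fell with TMM factors (median log2 fold change 0.33, against 0.00 over all genes), and 12 rose and 2 fell with library totals. Besides Kcnj5 they included Kcnj11, the pore of the ATP-sensitive potassium channel, with 88.5 and 108 CPM in the BT2 libraries, against 61.6 and 54.3 CPM in the vehicle libraries (0.77 ± 0.14, edgeR adjusted p = 0.0159), and Kcnj12, an inward rectifier, with 28.3 and 35.6 CPM in the BT2 libraries, against 16.9 and 9.603 CPM in the vehicle libraries (1.298 ± 0.26). Gja1, which encodes connexin 43, the main gap junction protein of ventricular muscle, fell, with 231 and 305 CPM in the BT2 libraries, against 428 and 631 CPM in the vehicle libraries (-0.98 ± 0.20, edgeR adjusted p = 0.0203). Of 33 adrenergic, angiotensin and other G protein receptor genes 3 rose and 4 fell with TMM factors. These shares were 9.1% and 12.1%, against 6.67% and 9.73% of all genes tested. With library totals 5 rose and 3 fell. Adra1a, an alpha-1 adrenergic receptor, had 32.8 and 37.1 CPM in the BT2 libraries, against 10.01 and 9.67 CPM in the vehicle libraries. Both BT2 libraries were more than 2-fold above both vehicle libraries (1.83 ± 0.23, edgeR adjusted p = 0.00959). Among 32 cardiac transcription factors 4 rose and 4 fell with TMM factors (12.5% each, against 6.67% and 9.73% of all genes tested). With library totals 6 rose and 4 fell. Tbx5 had 47.8 and 32.4 CPM in the BT2 libraries, against 17.6 and 12.8 CPM in the vehicle libraries (1.41 ± 0.21, edgeR adjusted p = 0.011) and Irx4, a factor of ventricular identity, had 25.3 and 26.7 CPM in the BT2 libraries, against 10.7 and 6.94 CPM in the vehicle libraries (1.59 ± 0.25), whereas Hdac9, a histone deacetylase that restrains MEF2, had 14.99 and 16.1 CPM in the BT2 libraries, against 39.9 and 26.5 CPM in the vehicle libraries (-1.08 ± 0.19). Of 34 genes of the sarcomere, Z-disc and M-band 4 rose and 3 fell (8 and 3 with library totals). With TMM factors these shares were 11.8% and 8.8%, against 6.67% and 9.73% of all genes tested. With either second replicate left out the list had 0 calls. Nebl, a Z-disc protein, was among those that rose, with 104 and 134 CPM in the BT2 libraries, against 54.1 and 41.1 CPM in the vehicle libraries (1.33 ± 0.21). With BT2 replicate 2 left out the channel list had 1 higher call and without vehicle replicate 2 it had 1. The calls of Kcnj11, Kcnj12, Adra1a, Irx4 and Nebl were lost in both of these fits, that of Gja1 also without BT2 replicate 1, that of Tbx5 without vehicle replicate 2 and that of Hdac9 without BT2 replicate 2.

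Among 28 FoxO targets and muscle atrophy genes 8 rose and 1 fell (median 0.28), or 11 and 1 with library totals. Trim63, the muscle ubiquitin ligase MuRF1, had 131 and 190.0 CPM in the BT2 libraries, against 83.4 and 56.1 CPM in the vehicle libraries (1.21 ± 0.22, edgeR adjusted p = 0.0167), and Ddit4, an inhibitor of mTORC1, had 59.9 and 81.2 CPM in the BT2 libraries, against 24.04 and 23.7 CPM in the vehicle libraries (1.57 ± 0.23, edgeR adjusted p = 0.011). Pdk4, another FoxO target that blocks pyruvate oxidation, had 405 and 1072 CPM in the BT2 libraries, against 918 and 871 CPM in the vehicle libraries, overlapped between groups and was not called (edgeR adjusted p = 0.716). The 1 member that fell, Cited2, is described above with the transcription factors. Without BT2 replicate 2 the list had 0 higher calls and without vehicle replicate 2 it had 1; Trim63 and Ddit4 lost the call in both. Of 19 clock genes 4 rose and 4 fell with TMM factors, 5 rose and 2 fell with upper quartile factors, and 4 rose and 3 fell with library totals. Without vehicle replicate 1 there were 8 higher and 5 lower calls. Without BT2 replicate 1 there was 1 in each direction. With either second replicate left out there were 0 higher and 1 lower. Npas2, a partner of BMAL1, had 8.64 and 7.56 CPM in the BT2 libraries, against 13.3 and 15.8 CPM in the vehicle libraries (-0.85 ± 0.20) and Rora, a nuclear receptor that activates Bmal1, had 31.1 and 29.6 CPM in the BT2 libraries, against 19.6 and 19.3 CPM in the vehicle libraries (0.64 ± 0.13). Per1 had 269.9 and 231 CPM in the BT2 libraries, against 285 and 260.3 CPM in the vehicle libraries and was not called (edgeR adjusted p = 0.81). The calls of Npas2 and Rora were kept only when vehicle replicate 1 was the library left out. The sources used here do not give the hour of the day at which tissue was taken.

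Of 32 genes of fatty acid uptake and oxidation 4 rose and 0 fell (6 and 0 with library totals). With TMM factors 12.5% rose, against 6.67% of all genes tested. Cpt1a and Ehhadh were among those that rose. Ehhadh, a peroxisomal enzyme, had 7.29 and 12.02 CPM in the BT2 libraries, against 2.502 and 2.73 CPM in the vehicle libraries (1.88 ± 0.28, edgeR adjusted p = 0.0109). Fabp3, the heart fatty acid-binding protein, had 3469 and 2973 CPM in the BT2 libraries, against 3339 and 3339 CPM in the vehicle libraries (edgeR adjusted p = 0.823). Of 36 nuclear-encoded respiratory chain genes and 24 genes of branched-chain amino acid catabolism none was called in either direction by edgeR with TMM factors; with library totals 1 and 2 members rose. At an unadjusted p under 0.05 the respiratory chain had 0 members and branched-chain catabolism 2 higher and 1 lower, and DESeq2 called 0 of the first list and 1 in each direction of the second. Atp5b, a subunit of ATP synthase, had 8462 and 8607 CPM in the BT2 libraries, against 8032 and 9426 CPM in the vehicle libraries and Acat1, of ketone and isoleucine breakdown, had 924 and 825 CPM in the BT2 libraries, against 727 and 1070 CPM in the vehicle libraries (edgeR adjusted p = 0.898 and 0.907). Of 37 genes of the hypoxia response and glycolysis 6 fell and 4 rose with TMM factors. These shares were 16.2% and 10.8%, against 9.73% and 6.67% of all genes tested. With library totals 1 fell and 5 rose. With BT2 replicate 2 or vehicle replicate 2 left out there was no call, and without BT2 replicate 1 there was 1 in each direction. Hk2, hexokinase 2, had 239.6 and 249.9 CPM in the BT2 libraries, against 431 and 571 CPM in the vehicle libraries (-1.03 ± 0.17, edgeR adjusted p = 0.0119). Of 30 genes of cholesterol synthesis and uptake 7 fell and 3 rose with TMM factors, and 4 fell and 4 rose with library totals. There were 0 lower calls and 1 higher without BT2 replicate 2. With vehicle replicate 2 left out there was none. Abca1, which exports cholesterol, rose, with 33.5 and 45.998 CPM in the BT2 libraries, against 18.2 and 19.2 CPM in the vehicle libraries (1.09 ± 0.16, edgeR adjusted p = 0.0109). The calls of Ehhadh and Hk2 were lost with BT2 replicate 2 or vehicle replicate 2 left out, and that of Abca1 without vehicle replicate 2. Proteasome genes (1 of 35 lower) and genes of autophagy and lysosome (1 of 38 higher) stayed under the shares called over all genes in those directions.

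The same tissue at 24 h, with 2 BT2 and 2 vehicle libraries of its own, allows the effect to be compared between times. The difference of the 2 effects was called for 1087 of 15216 genes (7.14%), 369 of them with a higher log2 fold change at 4 h than at 24 h (2.43%) and 718 with a lower one (4.72%). This count rested on single libraries: without 1 of the 8 libraries it lay between 0 and 1443, and 0 genes were called by edgeR without vehicle replicate 2 at 24 h, where 2854 had an unadjusted p under 0.05. At 24 h alone 6016 genes were called (39.5%). Of the 39 genes shown in the plot of both time points, 28 were also called at 24 h in the same direction and 0 in the opposite one. The difference was called for 13 of the 39. These genes were chosen by their calls and effect sizes at 4 h, which favours a larger effect at that time. Their counts therefore cannot be set against the shares over all tested genes. Egr3 had a log2 fold change of -2.16 ± 0.23 at 4 h and 0.14 ± 0.24 at 24 h, a difference of -2.30 ± 0.33 (edgeR adjusted p = 0.0186). Tnfaip3 had -2.11 ± 0.27 at 4 h and -0.23 ± 0.26 at 24 h, a difference of -1.87 ± 0.37 (edgeR adjusted p = 0.0321). Nfil3, Cited2 and Tnfsf18 likewise fell by more at 4 h, with differences of -1.46 ± 0.28, -1.74 ± 0.30 and -1.700 ± 0.32. Cd274 had -1.21 ± 0.12 at 4 h and 0.14 ± 0.12 at 24 h, a difference of -1.35 ± 0.17 (edgeR adjusted p = 0.0144). Ctdspl rose by more at 4 h (1.52 ± 0.19 at 4 h, -0.01 ± 0.18 at 24 h, difference 1.53 ± 0.26), as did Mitf, Tp53i13 and Iffo1 (differences 1.04 ± 0.24, 1.01 ± 0.18 and 0.75 ± 0.14). Ctgf had -2.54 ± 0.28 at 4 h and -2.53 ± 0.28 at 24 h, and Myc had -1.49 ± 0.16 at 4 h and -1.703 ± 0.16 at 24 h, with differences of -0.01 ± 0.38 and 0.22 ± 0.22 that were not called (edgeR adjusted p = 0.994 and 0.58). Fabp3 and Myh6, which had log2 fold changes near 0 at 4 h (-0.05 ± 0.13 and 0.04 ± 0.17), had 1.59 ± 0.14 and 1.11 ± 0.17 at 24 h, and their differences were called (-1.64 ± 0.19 and -1.06 ± 0.24).

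**Figure D5:**
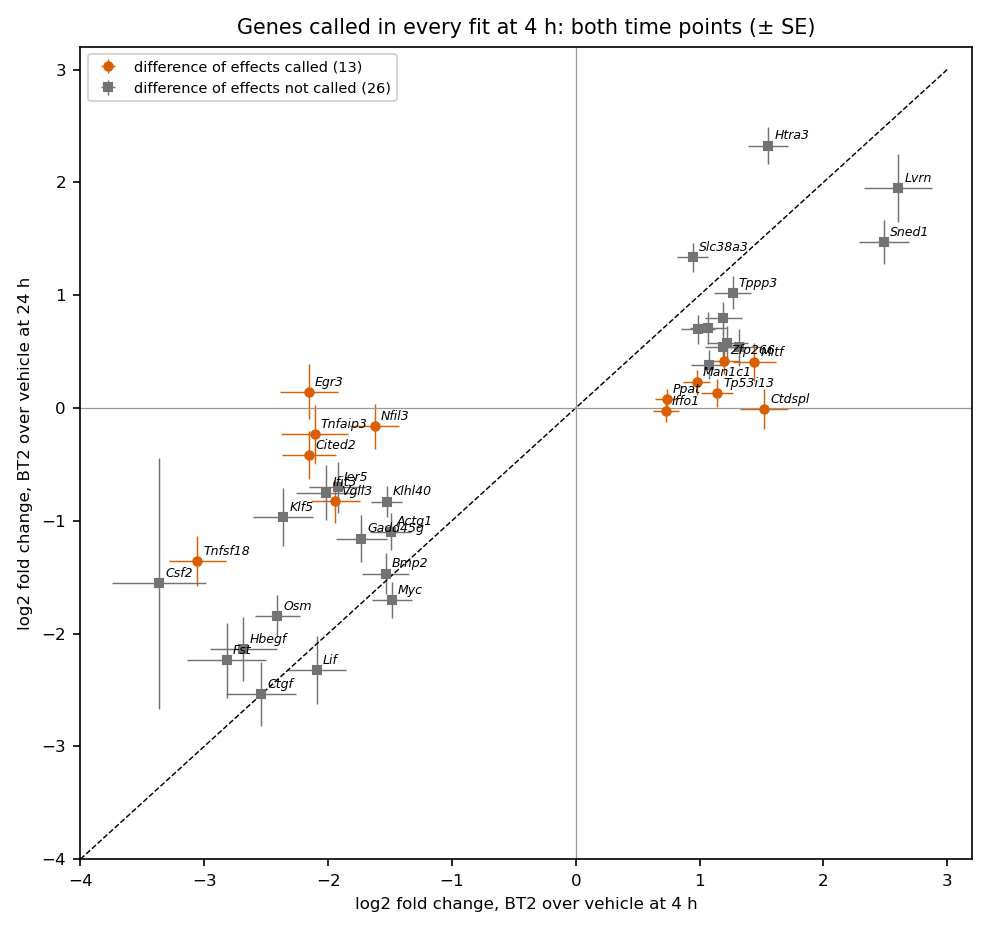
log2 fold change of BT2 over vehicle at 4 h (horizontal) and at 24 h (vertical) of the 39 genes called in all 5 fits at 4 h that the naming rule took, with bars of ± 1 SE and a dashed line of equal effects. Circles mark the 13 genes whose difference between times was called and squares the other 26; some labels in the crowded upper right are left out, and Egr3 lies near 0 at 24 h while Ctgf lies on the line.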

How the data were processed

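RNA was extracted with RNeasy Mini columns and made into TruSeq stranded mRNA libraries, per the labels' protocols. Reads were trimmed with Trim Galore, aligned with STAR to Rnor_6.0 and counted with featureCounts, per the submitters' processing notes; the sources used here give no version, strand setting or annotation release. The authors deposited whole-number counts per gene, from which everything else was computed. All 8 tissue libraries entered 1 edgeR fit (edgeR 4.0.16, R 4.3.3) with 1 mean for each group, filterByExpr, TMM factors and robust quasi-likelihood dispersion (4 residual degrees of freedom), and p-values were adjusted by Benjamini-Hochberg over 15216 genes. Scripts were tested on simulated data. Alternatives were other scaling factors, filters, dispersions, DESeq2 1.42.0, a replicate block, the 4 h libraries alone and each library left out. Promoters came from RefSeq (GRCr8): 11146 genes matched by symbol and 536 by synonym, 3534 had no single match. More motifs were searched than the 5 described. Of the others, the AP-1 motif was in 7.69% of promoters of genes called lower and 5.07% of genes called higher (5.19% of all). The TEAD motif was in 12.2% and 11.4% of these (11.3% of all), and in 12 of 28 promoters of the actin and SRF target list (42.9%). The 66 gene lists and the genes described were chosen with earlier results of these data known. Of 1746 list entries 1615 were tested, 101 had counts too low and 30 had no match.

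Genes were named by a rule. First came the 20 largest and 20 smallest log2 fold changes. They were taken among genes with a proper symbol, at least 5 CPM, calls in all 5 fits and no overlap between BT2 and vehicle libraries. Next came up to 4 called and 3 abundant uncalled members of each list. Then came 8 further genes of known roles (Fos, Fosb, Egr1, Vcam1, Il6, Ccl2, Nppa and Nppb). Last came up to 10 genes a direction, from the same pool as the first, whose effect differed between times. A few genes that the rule names are not reported here. Named outside it, after their values were seen, were Areg, Corin, Cxcl1, Egr2, Fosl1, Gnl3, Hspa8, Igf1, Inhba, Isg20, Junb, Ltbp2, Met, Ncl, Nfkb1, Nfkbiz, Npm1, Npm3, Pes1, Polr1c, Rela, Tgfbr3, Tlr2, Cyp1a1, Fam111a and the members at or near 0 counts.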

Additional observations from a re-analysis of the deposited data

Results flagged for a closer look

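The BT2 effect differed between 4 h and 24 h for 34 of the 176 genes named in the text, by edgeR's test of the difference itself. Over all tested genes this difference was called for 1087 of 15216 (7.14%). Some of the 176 genes were named because it was called for them, so the count cannot be set against that share. Values are the log2 fold change at 4 h minus that at 24 h. In 20 genes the difference was negative. Among signalling, early response and inflammatory genes it was -2.56 for Bdnf, -2.300 for Egr3, -1.87 for Tnfaip3, -1.74 for Cited2, -1.700 for Tnfsf18, -1.65 for Phlda1 and -1.46 for Nfil3. It was -1.38 for Adm, -1.35 for Cd274, -1.32 for Casp8, -1.15 for Spry4, -1.12 for Vgll3, -0.97 for Gbp2 and -0.79 for Ripk2. For the remaining genes it was -1.87 for Hdac9, -1.64 for Fabp3, -1.55 for Npas2, -1.37 for Gja1, -1.104 for Acat1 and -1.06 for Myh6. In 14 genes it was positive. It was 1.82 for Nppa, 1.703 for Folr2, 1.53 for Ctdspl, 1.28 for Ltbp2, 1.21 for Abca1, 1.09 for Tgfb2 and 1.04 for Mitf. It was 1.01 for Tp53i13, 0.97 for Cd68, 0.78 for Zfp266, 0.75 for Iffo1, 0.75 for Man1c1, 0.66 for Polr1c and 0.66 for Ppat. Ltbp2 and Tgfb2 fell at both times, with log2 fold changes of -1.697 and -1.18 at 4 h and -2.98 ± 0.21 and -2.27 ± 0.16 at 24 h, so their positive difference means a smaller fall at 4 h. No difference was called by edgeR without vehicle replicate 2 at 24 h, where 2854 genes had an unadjusted p under 0.05. Groups of 2 libraries are too small for a test of a single outlying library.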

How the results depend on the processing

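Without 1 library the 4 h calls lay between 112 and 2796 (40 to 1216 higher, 72 to 1580 lower), and the calls of a difference between times between 0 and 1443 (0 to 549 higher, 0 to 894 lower). The 4 h libraries alone gave 621 calls, 210 higher and 411 lower, against 2495, 1015 and 1480 in the fit to 8 libraries. The fit to the 4 h libraries alone has fewer samples. It also lacks the 24 h libraries, which differed less within a group (median 0.169 and 0.129 log2 units, against 0.196 and 0.239 at 4 h). The part that each has in the lower number of calls was not tested. Library totals gave 931 lower at 4 h, and 728 higher and 424 lower for the difference. The share of 4 h calls that were higher was 40.68% with TMM factors, 51.06% with upper quartile factors and 59.82% with library totals, which shifted the median of all genes by 0.13. No filter on low counts gave 1819 differences (730 higher, 1089 lower), and DESeq2 gave 1588 (581 higher, 1007 lower) and 1128 higher and 1587 lower calls at 4 h; the cause was not tested. Same-numbered libraries did not deviate together (r between -0.05 and 0.09 over genes), so the numbers were not taken as pairs; a replicate block gave 2248 calls at 4 h and 729 differences (222 higher, 507 lower). Of the 143 named genes that were called, 143 kept the call with DESeq2, 141 with DESeq2's size factors, 141 with upper quartile factors, 135 with library totals, 128 without a filter, 139 with the block and 105 in the 4 h libraries alone; of the 139 that a minimum of 5 CPM left, 139 did. Each library left out kept 118 (BT2 replicate 1), 57 (BT2 replicate 2), 140 (vehicle replicate 1) and 81 (vehicle replicate 2), and none changed direction in any of these fits. Of the named genes that were not called, 8 were called by DESeq2 (Ccl2, Cryab, Cyp1a1, Fam111a, Fos, Gas6, Rplp0 and S100a9), and all of these but Fam111a and Fos also in another edgeR fit. Depth limits genes of few counts: 96 list members fell below the filter. Of these 45 are listed at 0 at 4 h, and genes that most tissues use (Rpl8, Rplp2, Rps6 and Rps9) are among them, so a gene listed at 0 is not read as unexpressed; why they are at 0 was not tested.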

Other observations

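Single libraries held extreme values of a few genes, 2 of which were chosen after their values were seen. Cyp1a1, a cytochrome P450 induced by the aryl hydrocarbon receptor, had 1.903 and 83.1 CPM in the BT2 libraries, against 0.979 and 0.561 CPM in the vehicle libraries. The second BT2 library was far above the other 3, and the gene was not called (edgeR adjusted p = 0.0891). Fam111a, a protease gene, had 333 and 1.75 CPM in the BT2 libraries, against 4.46 and 1.12 CPM in the vehicle libraries, so here the first BT2 library stood alone (edgeR adjusted p = 0.217). Erythroid markers (6 measured) summed to 1635 and 694.2 CPM in the BT2 libraries, against 662.1 and 1004 CPM in the vehicle libraries. Platelet and megakaryocyte markers (7 measured) summed to 35.13 and 31.66 CPM in the BT2 libraries, against 51.68 and 69.4 CPM in the vehicle libraries, and none was called by edgeR in the fit to 8 libraries; edgeR called 2 lower with a replicate block and 1 without vehicle replicate 1, 2 were lower at an unadjusted p under 0.05, and DESeq2 called the same number lower.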
